A study of Mus musculus with 2 samples.

Results

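Integrins and cadherins are the adhesion receptors examined here in single cells of mouse brain that had received a glioma graft. Members were the genes whose symbols match the pattern of the integrin alpha, integrin beta or numbered cadherin subunits, leaving out Itgax, Itgav, Itgb8 and Cdh5, with at least 20 UMIs (distinct tagged RNA molecules) over the barcodes that passed the cell filters. Of 32285 genes in the files, 45 symbols matched and 40 met the rule, 23 integrins and 17 cadherins. Those under the limit were Cdh9, Cdh12, Cdh16, Cdh17 and Cdh18, with 8, 19, 2, 2 and 14 UMIs.

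Integrins are pairs of an alpha and a beta subunit that span the membrane and bind extracellular matrix or counter-receptors on other cells. Talin and kindlin proteins bind the beta tail and switch the pair to its active form. Cadherins bind cadherins of neighbouring cells in the presence of calcium. The classical ones are anchored to actin through beta- and alpha-catenin and also bind p120-catenin. In brain, leukocyte integrins are known from microglia and lymphocytes, Itgb1 pairs from vessel walls, and N-cadherin from glia, neural progenitors and synapses.

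The study asked about Plexin-B2, a semaphorin receptor, in myeloid cells of brain that carries KR158 cells, a mouse glioblastoma line. The control host was Cx3cr1 CreER/+ Plxnb2 fl/+, a heterozygote for the floxed allele although its title calls it WT, and the knockout host (cKO) was Cx3cr1 CreER/+ Plxnb2fl/fl. Each genotype was 1 droplet library with no stated pool of animals, so genotype, animal and preparation cannot be told apart, no test between genotypes was made, and intervals below cover counting error only. Both hosts were on a C57BL/6 background and received tamoxifen at 100 mg/kg, first 3 days ahead of the graft and then on alternate days up to 8 weeks. The recombinase is made only in Cx3cr1-expressing cells, so classes without Cx3cr1 are not direct targets of the deletion. Ages are not given in the labels. Tissue within 1 mm of the injection site on either side was dissociated with papain and passed through Percoll, which also limits the cells recovered.

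After filtering, 7624 control cells (median 4618.5 UMIs) and 5206 cKO cells (median 5917 UMIs) were kept. Clusters were named from marker lists, and a class name below stands for cells that look like that type by those markers. The 9 classes compared held at least 50 cells in both libraries, from 2385 control and 1317 cKO astrocytes to 73 and 77 T cells, and choroid plexus cells (348 and 4) are given for the control only. Plxnb2 stood at 200.9 CPM (UMIs per 1000000 UMIs of a class) in control microglia and 38.8 CPM in cKO microglia. In border macrophages it stood at 109.3 CPM in control and 31.6 CPM in cKO cells, from 51 and 9 UMIs. Microglia were sequenced to a median of 3931 UMIs in control and 6106 in cKO cells. No cluster took the tumour or monocyte name: 16 cells in each library carried at least 4 of 8 tumour markers. The 10 choroid plexus markers, which are not microglial genes, summed to 1622 CPM in control and 2.72 CPM in cKO microglia. The libraries shared 8 cell barcodes.

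The promoter of Itgam, which encodes the alpha subunit of complement receptor 3, is shown because microglia, a Cx3cr1-expressing class, led for Itgam in both libraries. It is the 250 bases before the gene's start on the plus strand, chr7:128062390-128062639 in GRCm38.p6, from RefSeq. The capitals mark GAGGAA and its reverse complement TTCCTC, the core letters of the site known for the myeloid factor PU.1.

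Itgam promoter: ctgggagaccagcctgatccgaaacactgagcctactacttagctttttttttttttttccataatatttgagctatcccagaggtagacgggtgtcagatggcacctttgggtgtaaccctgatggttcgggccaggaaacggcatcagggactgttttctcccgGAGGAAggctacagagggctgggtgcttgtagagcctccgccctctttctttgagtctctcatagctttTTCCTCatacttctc

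The first copy starts 84 bases and the next 15 bases before the gene's start. The motif, searched on both strands, was in 23.3% of 32851 promoter windows of that length and in 12 of 29 windows of members, which belong to 25 of the 40 genes. A match is a description of letters and not a binding site.

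Every member was assigned the class with the highest CPM, since each gene's level can be compared between classes but not with another gene's. The leading class was the same in both libraries for 35 of the 40 members, 20 of 23 integrins and 15 of 17 cadherins. For 20 members the interval of the leading class also lay above that of the next class in both libraries. A leading class in both libraries was ependymal cells for 7 members, pericytes or smooth muscle cells for 6, and 5 each for T cells, microglia and astrocytes. Endothelial cells led for 3, and neuroblasts and oligodendrocytes for 2 each. All 5 astrocyte-led members were cadherins and 4 of the 5 microglia-led members were integrins.

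**Figure D1:**
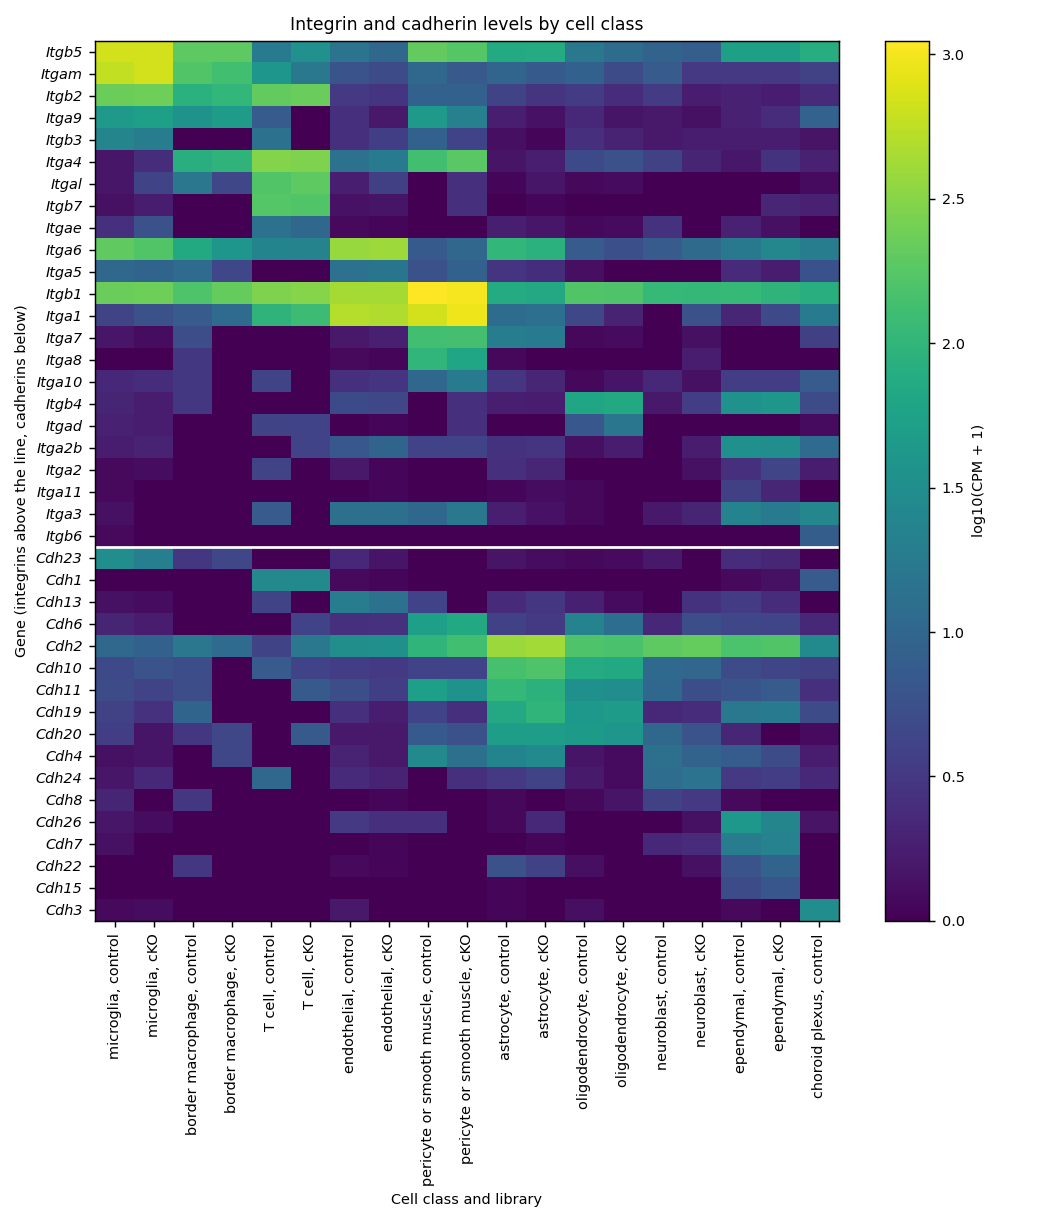
Level of each of the 40 members (y axis) in each cell class (x axis), in CPM on a log colour scale, control and cKO side by side. The same class led in both libraries for 35 members; choroid plexus cells are shown for the control alone because the cKO library held 4.

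Summed over members, integrin UMIs were most abundant in pericytes or smooth muscle cells, at 2475 CPM in control and 2595 CPM in cKO cells. Microglia followed with 2003 and 2124 CPM. Endothelial cells held 1395 CPM in each library, and T cells 1353 and 1396 CPM. Cadherin sums were ordered otherwise: astrocytes stood first at 789 and 858 CPM and oligodendrocytes next at 377 and 348 CPM, while microglia held 57.6 and 41.1 CPM. The integrin sums of astrocytes were 302.7 and 276 CPM.

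Among the leukocyte integrins, Itgam was led by microglia. It stood at 578.6 CPM (interval 559 to 599) in the control and 693.8 CPM (668 to 720) in cKO microglia, followed by border macrophages at 167 and 133 CPM. A UMI was seen in 82.7% of control and 93.8% of cKO microglia, against 4.23% and 3.11% of oligodendrocytes, which should lack it and were deeper (median 6251 and 7435 UMIs). With every cell thinned to 1000 UMIs the microglial shares were 42.8% and 47.0%. Both macrophage classes therefore held Itgam well above the oligodendrocyte level in both libraries.

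Itgb2, the beta subunit shared by CD11 integrins, was about equal in microglia and T cells. Its level was 227.5 and 236 CPM in control and cKO microglia, and 206 and 224 CPM in T cells, so the order of these neighbours was within counting error. Border macrophages held 87.9 and 101.8 CPM. Oligodendrocytes held 2.51 and 1.42 CPM, with a UMI in 1.60% and 1.17% of cells.

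Itgal, the alpha subunit of LFA-1, and Itgb7, the beta subunit of gut-homing integrins, were T cell members. Itgal stood at 163 and 196 CPM in control and cKO T cells and at 0.54 and 3.22 CPM in microglia. Itgb7 stood at 176 and 165 CPM in T cells. No oligodendrocyte held an Itgb7 UMI, which allows a share of up to 0.343% of 875 control and 0.583% of 515 cKO cells. The T cell shares with a UMI were 47.9% and 39.0%, so both lay far above this reference, but each rests on few cells (73 and 77, median 3934 and 3953 UMIs).

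Itga4, the alpha subunit that pairs with Itgb1 or Itgb7 and binds VCAM-1, was led by T cells at 301 and 289 CPM. Pericytes or smooth muscle cells came next at 134 and 182 CPM, then border macrophages at 81.4 and 94.8 CPM. Microglia were nearly without it, at 0.54 and 1.48 CPM from 3 and 6 UMIs, below the 3.85 and 4.73 CPM of oligodendrocytes. Itga4 thus separated border macrophages from microglia in both libraries. It overlaps Cerkl on the opposite strand, which had 0 UMIs in T cells of both libraries; whether counting used strand is not given in the sources used here.

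Itgad and Itgae, further leukocyte alpha subunits, were sparse. Itgae led in T cells with 4 control and 3 cKO UMIs. Itgad led in oligodendrocytes at 5.69 CPM in control and 14.6 CPM in cKO cells, with a UMI in 3.66% and 9.71% of cells, against 0.385% and 0.528% of microglia. Itgad overlaps Cox6a2 and 3 other genes on the opposite strand, each with 0 or 1 UMI in oligodendrocytes of either library, against 34 and 62 UMIs of Itgad. In microglia Cox6a2 had 101 and 109 UMIs and Itgad 5 and 3.

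Itgb1, the common beta subunit, was present in every class compared. Pericytes or smooth muscle cells stood highest at 1114 and 1012 CPM. Endothelial cells followed at 437 and 434 CPM, T cells at 284 and 314 CPM and microglia at 224 and 235 CPM. Astrocytes were lowest at 74.2 and 68.1 CPM. The astrocyte level was below that of neuroblasts (110 and 105 CPM) in both libraries.

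The collagen receptors pair with Itgb1, and Itga1 had the most UMIs of them. Its level was 689 and 929 CPM in pericytes or smooth muscle cells, 505 and 484 CPM in endothelial cells and 94.8 and 121 CPM in T cells. In microglia it was 3.22 and 4.70 CPM, with a UMI in 1.39% and 2.64% of cells, against 83.9% and 86.3% of endothelial cells. Itga1 was thus a vessel wall member in both libraries; it contains the gene Pelo on the same strand. Itga10, Itga11 and Itga2, other collagen-binding alphas, had 210, 36 and 70 UMIs in all; pericytes or smooth muscle cells led for Itga10, ependymal cells for Itga11, and the leading class of Itga2 differed between libraries.

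Of the laminin receptors, Itga6 was led by endothelial cells at 377 CPM (360 to 394) in control and 396 CPM (383 to 410) in cKO cells. Microglia came next with 198 and 165 CPM and astrocytes with 102 and 87.5 CPM. Itga7, which binds laminin in muscle and vessel walls, was led by pericytes or smooth muscle cells at 132 and 139 CPM, with astrocytes next at 18.6 and 16.5 CPM. Itgb4, the partner of Itga6 in hemidesmosomes, was led by oligodendrocytes at 63.4 and 70.2 CPM and then ependymal cells at 35.6 and 40.2 CPM. Oligodendrocytes and endothelial cells thus led for different subunits of the Itga6 and Itgb4 pair. Itga3 was led by ependymal cells at 22.0 and 17.6 CPM, while control choroid plexus cells, a class not compared, stood at 25.0 CPM.

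The receptors for fibronectin and other ligands were mostly low. Itga8, a nephronectin and fibronectin receptor of contractile cells, was led by pericytes or smooth muscle cells at 99.7 and 60.3 CPM. Itga5, the classical fibronectin receptor alpha, was led by endothelial cells at 13.1 and 14.2 CPM. Itga9, which binds tenascin, had no stable order: microglia, border macrophages and pericytes or smooth muscle cells lay between 20.1 and 51.2 CPM. Itga2b, known as the platelet fibrinogen receptor alpha, was led by ependymal cells at 32.5 and 30.4 CPM, with a UMI in 46.0% and 49.1% of these deeply sequenced cells (median 17493 and 14883 UMIs). In microglia the shares were 0.308% and 0.704%.

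Among the partners of alpha v, Itgb5 and Itgb3 were led by microglia. Itgb5 stood at 689 CPM (667 to 711) in control and 696 CPM (670 to 722) in cKO microglia, and at 195 and 197 CPM in border macrophages. Pericytes or smooth muscle cells held 206 and 176 CPM. Microglia thus led for Itgb5 well beyond counting error in both libraries. Itgb3 was also led by microglia, at 23.5 and 18.8 CPM. Itgb6, an epithelial subunit, was at or below 1 UMI in every class compared, and in control choroid plexus cells it stood at 6.94 CPM.

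The classical cadherin Cdh2 (N-cadherin) was present in all neural classes. Astrocytes led at 387 CPM (375 to 398) in control and 419 CPM (404 to 434) in cKO cells. Neuroblasts followed at 197 and 212 CPM, and ependymal cells (150 and 166 CPM) and oligodendrocytes (160 and 149 CPM) were close together, in an order that differed between libraries. In microglia Cdh2 was at 9.67 and 7.92 CPM, with a UMI in 3.62% and 4.75% of cells against 76.2% and 79.4% of astrocytes.

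Cdh1 (E-cadherin) was led by T cells, but with 8 and 9 UMIs. Cdh3 (P-cadherin) was near 0 in the classes compared and stood at 30.3 CPM in control choroid plexus cells. Cdh4 (R-cadherin) stood at 22.6 and 27.2 CPM in astrocytes and 28.0 and 12.4 CPM in pericytes or smooth muscle cells (18 and 8 UMIs). Its leading class thus differed between libraries. Cdh15 (M-cadherin) had 22 and 15 UMIs in ependymal cells. None of these reached 50 CPM in both libraries in a class compared.

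Among type II cadherins, which lack the classical recognition motif of type I, astrocytes and oligodendrocytes shared several. Cdh10 stood at 143 and 162 CPM in astrocytes and 73.3 and 70.2 CPM in oligodendrocytes. Cdh20 was nearly level between them, with 50.7 and 48.8 CPM in astrocytes and 44.7 and 39.2 CPM in oligodendrocytes. Cdh11 was led by astrocytes at 107 and 90.8 CPM. Microglia held Cdh10 at 3.76 and 4.95 CPM, so none of these glial cadherins was a myeloid one. Cdh19, known from Schwann cell precursors, stood at 67.1 and 98.9 CPM in astrocytes and 40.8 and 46.3 CPM in oligodendrocytes.

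Cdh6 was led by pericytes or smooth muscle cells at 51.4 and 69.5 CPM, and Cdh7 by ependymal cells at 18.4 and 21.2 CPM. Cdh22 was highest in ependymal cells at 4.96 and 8.41 CPM, but control astrocytes were within counting error at 4.75 CPM. An astrocyte cluster of 595 and 204 cells held it at 18.2 and 14.3 CPM, above the ependymal value in both libraries, with overlapping counting intervals in the cKO library. Neuroblasts led for Cdh24 (11.3 and 13.5 CPM) and Cdh8 (2.98 and 2.18 CPM). Cdh13 (T-cadherin), which is held to the membrane by a GPI anchor, was led by endothelial cells at 18.3 and 13.2 CPM.

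Cdh23 and Cdh26 lie outside the classical groups. Cdh23, a long cadherin of hair cell tip links, was led by microglia at 30.1 and 19.5 CPM, with border macrophages next at 2.14 and 3.51 CPM. It overlaps Vsir on the opposite strand, which stood at 926.6 and 901 CPM in microglia, so reads of Cdh23 there cannot be told apart from antisense signal. Cdh26, a cadherin known from epithelium, was led by ependymal cells at 40.8 and 23.0 CPM and was at 2.19 CPM or less in every other class compared.

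Clusters within a class held different members. The pericyte or smooth muscle class consisted of a Kcnj8 and Abcc9 cluster (93 and 101 cells) and an Acta2 and Myh11 cluster (71 and 67 cells). Itga1 stood at 1276 and 1570 CPM in the first and 360 and 359 CPM in the second. Itga4 was likewise higher in the first, at 304 and 322 CPM against 38.9 and 58.4 CPM. Cdh6 showed the other order, with 0 and 2 UMIs in the first and 80.2 and 125 CPM in the second. Itgb1 was high in both, from 913 to 1130 CPM.

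Cdh2 also separated these clusters, at 265 and 223 CPM in the Kcnj8 and Abcc9 cluster and 4.86 and 49.6 CPM (2 and 17 UMIs) in the Acta2 and Myh11 cluster. Itga8 was higher in the Acta2 and Myh11 cluster, at 129 and 84.6 CPM against 47.7 and 32.9 CPM. Itga7 differed less, with 165 and 158 CPM against 114 and 123 CPM. The members that differed most between these clusters did so in the same direction in both libraries.

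Of the neuroblast clusters, the cycling one (78 and 94 cells) held less Cdh2, 133 and 143 CPM, than the other (138 and 238 cells), 290 and 286 CPM. An oligodendrocyte-marked cluster with Klk6 and Enpp6 among its leading genes (77 and 48 cells) was left unnamed because Enpp6 is a precursor marker. It held Itgb4 at 136 and 177 CPM, against 61.7 and 69.8 CPM in the Opalin and Mal cluster. Clusters were formed without the members among the clustering genes.

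**Figure D2:**
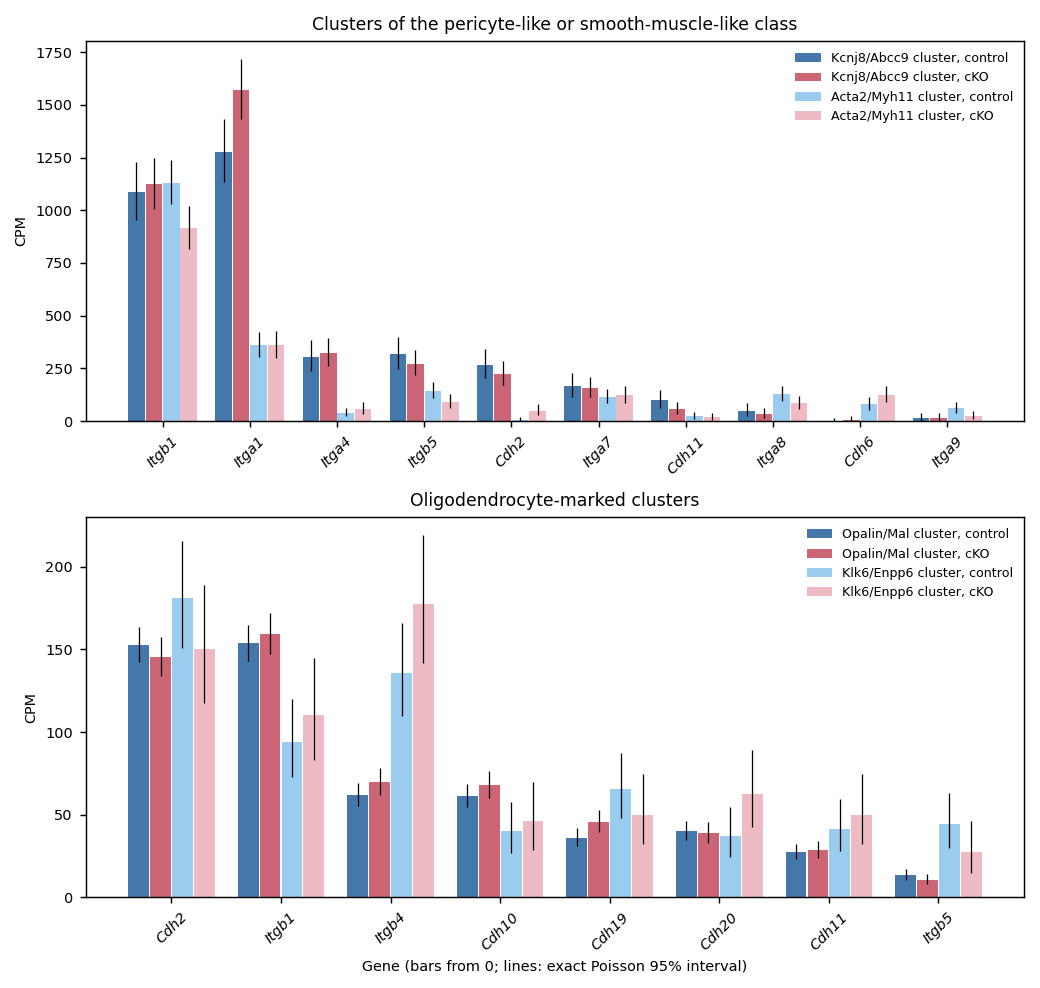
CPM of members in clusters of a class (bars from 0; lines: exact Poisson 95% interval; control and cKO). Top, Itga1 and Itga4 are higher in the Kcnj8 and Abcc9 cluster, and Itga8 and Cdh6 in the Acta2 and Myh11 cluster; bottom, Itgb4 is higher in the Klk6 and Enpp6 cluster.

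Between genotypes, most members stood close to equality. A pair of member and class was measured when both libraries averaged at least 20 CPM and one held at least 30 UMIs, and was called when the ratio passed 1.5-fold with an interval excluding equality. Of 58 measured pairs, from 24 members, 1 was higher and 3 were lower in the cKO library and 54 were neither. The called pairs were Itga6 and Cdh26 in ependymal cells, Cdh23 in microglia and Itga8 in pericytes or smooth muscle cells. Within a class this was 2 of 7 measured members in ependymal cells, where 2.82% of all measured genes were called (1.98% higher and 0.837% lower), and 1 of 8 in microglia, where 4.99% were (2.04% lower). In pericytes or smooth muscle cells it was 1 of 9, beside 10.6% of all genes (3.68% lower). None was called among 9 in astrocytes (1.6% of all genes), 4 in endothelial cells (2.33%), 7 in oligodendrocytes (2.18%), 2 in neuroblasts (4.42%), 6 in border macrophages (10.3%) or 6 in T cells (11.5%).

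The median log2 ratio of the measured members, cKO over control, was 0.03 in microglia, beside -0.00 over all measured genes. It was 0.03 in astrocytes (all genes 0.03), 0.03 in endothelial cells (0.02), 0.00 in ependymal cells (0.02) and 0.02 in neuroblasts (0.03). In oligodendrocytes it was -0.06 (0.01), in pericytes or smooth muscle cells 0.07 (0.07), in border macrophages 0.11 (0.03) and in T cells 0.13 (0.05). The class medians thus lay within 0.13 of equality on the log2 scale.

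**Figure D3:**
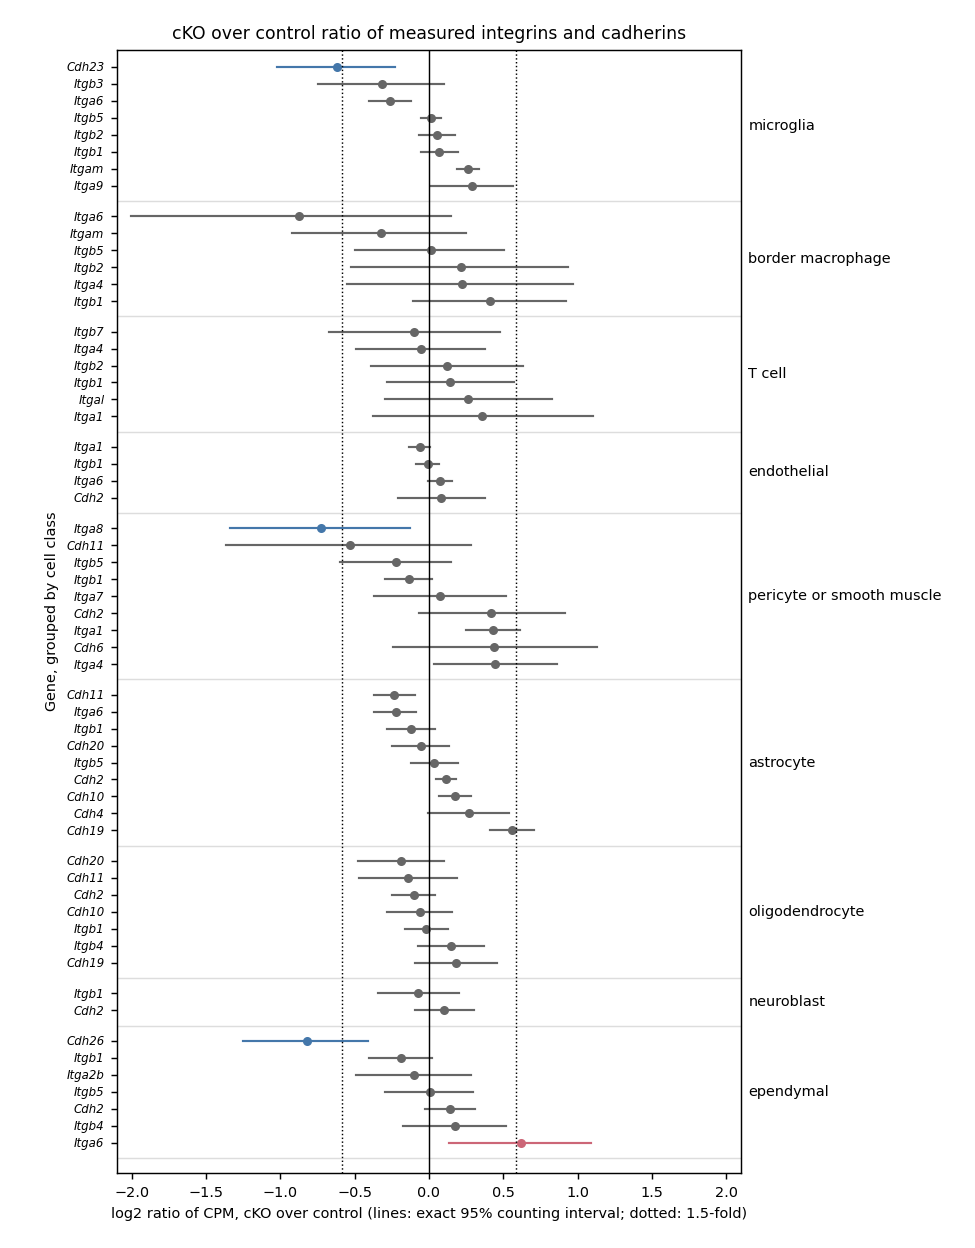
Log2 ratio of CPM, cKO over control (x axis), for the 58 measured pairs grouped by class (points; lines: exact 95% counting interval; dotted lines: 1.5-fold). Itga6 in ependymal cells lies above and Cdh26, Cdh23 and Itga8 lie below the dotted lines with intervals that exclude 0.

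In microglia, a Cx3cr1-expressing class, 7 of 8 measured members were neither. The lowest was Cdh23, with 168 control and 79 cKO UMIs in 149 and 67 cells and a log2 ratio of -0.62 (-1.03 to -0.23). It was not called, and stood at 0.46, when cells were thinned to 1000 UMIs. A Cdh23 UMI was then seen in 2.31% of control cells (1.56 to 3.28, 30 cells) and 2.99% of cKO cells (1.75 to 4.75, 17 cells). These intervals overlap, so the thinned values set no direction. Before thinning, cKO microglia were the deeper ones. The gene lies at chr10:60302748-60696490 (mm10, minus strand). The highest was Itga9, at 0.29 (0.01 to 0.57). Itgam was 0.26 (0.19 to 0.34) and Itga6 -0.26 (-0.40 to -0.12), both short of 1.5-fold with intervals that excluded equality. In these cells the 10 border macrophage markers summed to 229.9 CPM in control and 297 CPM in cKO cells, and 9 of 10 were higher in the cKO library; none was at 0. The part of these markers in the ratios was not tested.

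In ependymal cells, Cdh26 (chr2:178430531-178487366, mm10, plus strand) had 222 control UMIs in 75 of 239 cells and 63 cKO UMIs in 28 of 110 cells. Its log2 ratio was -0.82 (-1.25 to -0.41). The 5 cells with the most Cdh26 held 21.6% of its UMIs in control and 44.4% in cKO cells, so few cells carry the level. Thinned to 1000 UMIs per cell, the ratio was -0.47 and was not called. A UMI of Cdh26 was then left in 9 control and 3 cKO cells, few beside the 30 UMIs needed in one library for a call.

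Itga6 (chr2:71745616-71858416, mm10, plus strand) was the member higher in cKO ependymal cells, at 16.0 and 24.5 CPM with 87 and 67 UMIs, a log2 ratio of 0.62 (0.14 to 1.09). It was called in 6 of 11 alternative settings. In the same cells all 10 endothelial markers were higher in the cKO library and none was at 0 in either. They summed to 26.4 CPM in control and 173 CPM in cKO cells, and Itga6 is led by endothelial cells; the part of these markers in the Itga6 ratio was not tested. Itga1, also abundant in endothelial cells, stood at 1.10 and 3.66 CPM in ependymal cells (6 and 10 UMIs).

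In pericytes or smooth muscle cells, Itga8 (chr2:12106632-12301922, mm10, minus strand) had 64 UMIs in 34 control cells and 39 in 29 cKO cells. The highest count in a cell was 13 UMIs in control and 3 in cKO cells. The 5 cells with the most Itga8 held 45.3% of its UMIs in control and 30.8% in cKO cells, so few cells carry the control level. The log2 ratio of Itga8 was -0.73 (-1.34 to -0.13). It was not called with cells thinned to 1000 UMIs or at a mitochondrial limit of 5%. After thinning, a UMI of Itga8 was left in 7 control and 6 cKO cells, few beside the 30 UMIs needed in one library. The thinned result therefore cannot tell a dependence on depth from too few UMIs. Markers of the Acta2 and Myh11 cluster moved with Itga8. Over the class, Acta2 stood at 11394 and 8581 CPM and Myh11 at 2680 and 1889 CPM, while Abcc9 stood at 632 and 776 CPM. Within the Acta2 and Myh11 cluster the ratio was -0.61 (-1.31 to 0.07), and within the other -0.54 (-1.93 to 0.84), both with intervals that included equality. The highest member of this class was Itga4, at 0.44 (0.03 to 0.86). Itga1 was 0.43 (0.25 to 0.61) over the class and 0.30 (0.09 to 0.51) within the Kcnj8 and Abcc9 cluster, with 360 and 359 CPM in the other cluster.

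In astrocytes the highest member was Cdh19 (chr1:110888326-110977584, mm10, minus strand), with 764 and 720 UMIs in 24.5% and 36.9% of cells (median 4469 and 5190 UMIs), against 1.23% of microglia in both libraries. Its log2 ratio was 0.56 (0.41 to 0.71), a 1.47-fold level just under the 1.5-fold limit. It was higher in the cKO library in each of the 3 largest astrocyte clusters, at 70.2 and 91.8 CPM, 49.5 and 94.7 CPM, and 128 and 188 CPM. The thinned shares were 6.16% and 9.11% of cells, so the direction was the same at equal depth. The lowest member was Cdh11, at -0.23 (-0.37 to -0.09). In astrocytes the microglial markers summed to 406 and 246 CPM and none of the 10 was higher in the cKO library; their part was not tested.

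In the other classes the extremes all had intervals including equality. Endothelial members ran from Itga1 at -0.06 (-0.14 to 0.01) to Cdh2 at 0.08 (-0.21 to 0.37). Oligodendrocyte members ran from Cdh20 at -0.19 (-0.48 to 0.10) to Cdh19 at 0.18 (-0.10 to 0.46). Those of neuroblasts were Itgb1 at -0.07 (-0.34 to 0.20) and Cdh2 at 0.10 (-0.09 to 0.30). These narrow intervals leave no room for a 1.5-fold difference in counting terms. T cell members ran from Itgb7 at -0.10 (-0.67 to 0.48) to Itga1 at 0.36 (-0.38 to 1.10), and border macrophage members from Itga6 at -0.87 (-2.01 to 0.15) to Itgb1 at 0.41 (-0.11 to 0.92). These last intervals are wide enough to hold a 1.5-fold difference.

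The genes that act with integrins inside the cell were set beside the share of all measured genes called in each class. Of 26 listed activators and adaptors, none was called among 19 measured in endothelial cells (2.33% of all genes) or 18 in microglia (4.99%). Nor was any of 17 in oligodendrocytes (2.18%), 16 in astrocytes (1.6%), 15 in ependymal cells (2.82%), 10 in neuroblasts (4.42%) or 5 in T cells (11.5%). At these shares, few or no calls would be met in lists of this size. Fermt3, the kindlin of blood cells, was 1 of 9 called in border macrophages, at 124 and 190 CPM with a log2 ratio of 0.61 (0.05 to 1.17), beside 5.43% of all genes called higher there. Rap1b, a small GTPase that activates integrins, was 1 of 14 called in pericytes or smooth muscle cells, at 79.5 and 125 CPM and 0.66 (0.13 to 1.19), beside 6.93% of all genes called higher.

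Of the 9 listed catenins and p120 family members, 4 to 7 were measured in each class except T cells, where none was. None was called in any class, beside shares of all genes from 1.6% in astrocytes to 10.6% in pericytes or smooth muscle cells. The median log2 ratio ran from -0.05 in oligodendrocytes and endothelial cells to 0.11 in pericytes or smooth muscle cells.

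Among 23 counter-receptors and matrix ligands, Vcam1 and Icam1 stood higher in the cKO library in some classes. Vcam1, the ligand of Itga4 pairs, was at 89.2 and 191 CPM in endothelial cells, a log2 ratio of 1.10 (0.95 to 1.25). Icam1, the ligand of Itgal and Itgam pairs, was at 20.9 and 42.9 CPM there, a ratio of 1.04 (0.72 to 1.37). They were the 2 of 13 measured ligands called in that class, both higher, beside 0.967% of all measured genes. Icam2, a further counter-receptor of Itgal pairs, was 274 and 280 CPM there, a ratio of 0.03 (-0.07 to 0.13). In microglia Vcam1 was 0.90 (0.51 to 1.30) and Icam1 0.82 (0.64 to 1.00), 2 of 4 measured, beside 2.95% of all genes called higher. Vcam1 was also called in border macrophages, at 450 and 794 CPM and 0.82 (0.54 to 1.10), 1 of 2 measured ligands, beside 10.3% of all genes called (5.43% higher). The other, Mfge8, was 70.7 and 38.6 CPM there, -0.87 (-2.01 to 0.15). In astrocytes Vcam1 was 173 and 160 CPM, -0.11 (-0.22 to -0.01), and was not called. Of the integrins that bind these ligands, Itgam and Itgb2 were measured in microglia and border macrophages and Itga4 in border macrophages. Itgal, Itga4, Itgb2 and Itgb7 were measured in T cells, and Itga4 also in pericytes or smooth muscle cells. None of these was called. Itgam, Itgb2, Itga4 and Itgal were not measured in endothelial cells, while Itgb1, a partner of Itga4, was measured there and not called.

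In pericytes or smooth muscle cells 3 of 15 measured ligands were called, beside 10.6% of all genes (6.93% higher and 3.68% lower). Spp1 (osteopontin) was higher, at 148 and 615 CPM, from 19 and 42 cells, with a ratio of 2.06 (1.73 to 2.39). Thbs1 and Fn1 were lower, at 128 and 20.1 CPM (-2.67, -3.64 to -1.82) and 146 and 47.9 CPM (-1.61, -2.25 to -1.01). Each rested on few cells: Thbs1 on 14 and 9 and Fn1 on 20 and 17. Mfge8, a bridging ligand of alpha v integrins, was lower in oligodendrocytes, at 62.4 and 38.3 CPM (-0.70, -0.98 to -0.43), 1 of 3 measured there, beside 1.72% of all genes called lower.

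Vtn (vitronectin), a gene of pericytes, was called higher in neuroblasts at 7.74 and 43.7 CPM (2.50, 1.67 to 3.45), from 13 and 23 cells, 1 of 3 measured beside 2% of all genes called higher. In T cells Vtn and Spp1 were called higher with 82 and 61 cKO UMIs in 7 and 4 cells, the 2 measured ligands there, beside 7.13% of all genes. In the neuroblast class the 12 pericyte or smooth muscle markers, Vtn among them, summed to 74.4 and 114 CPM, and 8 of 12 were higher in the cKO library. Vtn itself made up 7.74 and 43.7 CPM of these sums, so the sums are not separate from its ratio. The part of the other markers in these ratios was not tested.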

How the data were processed

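Single-cell RNA-seq libraries from 1 control and 1 cKO host were analysed. Both deposited matrices contain raw UMI counts; per the submitters' processing notes, Cell Ranger 7.1.0 and the mm10 build were used. The sources used here do not give the annotation release, intron counting or strand setting. For the control, 10942 barcodes of at least 500 UMIs each were deposited, with 64756949 UMIs, while the cKO matrix is unfiltered, with 63785513 UMIs over 1513730 barcodes. Because the control had already been filtered, the same limits were set on both.

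A cell needed 1000 UMIs, 500 genes and a mitochondrial share of 10% or less; cells called doublets were removed (Scrublet in scanpy 1.11.5; 5.50% of control and 3.56% of cKO cells were called). Both libraries were clustered together on 2000 variable genes, without the members, with 30 principal components, 15 neighbours and Leiden resolution 1 (leidenalg 0.10.2). Clusters were named from 21 marker sets with at least 3 detected markers, a marker being detected in at least 10% of cells at 2-fold or more over other clusters. Clusters led by another class's markers, or with low UMIs and no own marker among the 10 leading genes, stayed unnamed. So did clusters with 75% of a second class's markers, or with 50% of them and at least 2 times the library's median UMIs, a limit set after the data were seen. That limit left out an arterial-gene cluster with 1.81% of control and 5.34% of cKO cells, and the 75% limit one with 1.46% and 2.96%. In all, 15.5% of control and 21.9% of cKO cells were unnamed.

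UMIs were summed per class and library, scaled to CPM, and given exact Poisson 95% intervals; ratios and shares carry exact Clopper-Pearson intervals. UMIs of 1 library are not replicates, and all intervals and zero limits (3 counts) cover counting error only. The ratio step was tested on simulated data. Gene positions are from GENCODE vM21, which holds 99.8% of the identifiers. Python 3.11.15, numpy 2.4.6, scipy 1.17.1, pandas 2.3.3 and matplotlib 3.10.9 were used.

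The members, gene lists and rules were chosen with earlier results of these data known. The rule for names gives every member with its leading class, levels for members at 50 CPM or more in both libraries, ratios for called members and each class's extremes, and up to 3 called genes per list and class. Alternatives were other UMI, mitochondrial and expression limits, resolutions, scalings, thinning, doublets kept, the members allowed in clustering, all microglia-marked clusters, and deep mixed clusters kept in their class.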

Additional observations from a re-analysis of the deposited data

Results flagged for a closer look

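Itga6 stood in opposite directions between genotypes in different classes. In ependymal cells its log2 ratio, cKO over control, was 0.62 (0.14 to 1.09), while it was -0.23 (-0.37 to -0.08) in astrocytes and -0.26 (-0.40 to -0.12) in microglia, each with 1 library per genotype. All 3 counting intervals excluded equality. The difference between classes was not tested. In ependymal cells the ratio rested on 87 control and 67 cKO UMIs and was called in 6 of 11 alternative settings. Endothelial markers were also higher in cKO ependymal cells, and their part was not tested. In endothelial cells, which led for Itga6, the ratio was 0.07, with an interval that included equality.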

How the results depend on the processing

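No paired analysis was possible because each genotype is 1 library and the groups share a single replicate number. Over 58 measured pairs and 640 alternative values, 602 stayed within the main counting interval, 37 moved outside it and 1 reversed. The reversed one was Cdh23 in microglia, at 0.46 with cells thinned to 1000 UMIs. A UMI was then seen in 30 control and 17 cKO cells, and the intervals of these shares overlapped. The cause was not tested. The count of members higher in the cKO library (1) was 0 with thinned cells, with the CPM total taken without mitochondrial, rRNA-like and Ttr reads, at a minimum of 50 CPM, at a mitochondrial limit of 5% and with doublets kept, 2 at a UMI floor of 2000 and 8 with no expression minimum. The count of lower members (3) was 1 with thinned cells, 1 at 50 CPM and 9 with no minimum. The members' median in endothelial cells (0.03) was -0.19 with thinned cells and -0.15 with no minimum, and in neuroblasts (0.02) it was -0.085 and -0.15; fewer or more members were measured there. The call of Cdh23 was kept in 11 of 12 alternatives, Cdh26 in 10 of 11, Itga8 in 9 of 11 and Itga6 in ependymal cells in 6 of 11. Thinning left few UMIs of Cdh26 and Itga8, so their lost calls there cannot tell depth from too few UMIs. The count of 35 members with the same leading class was 26 with thinned cells, 31 at a mitochondrial limit of 5% and 32 at resolution 2.0. It was 35 under every other alternative run. Among those were deep mixed clusters kept in their class, an alternative chosen after seeing the data. Thin classes limit the ratios: T cells and border macrophages had 6 measured members each.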

Other observations

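Clusters that received no class name held further members. A cluster led by Npy and Frzb (99 control and 24 cKO cells) had Cdh19 at 108 and 130 CPM, Cdh24 at 69.0 and 67.8 CPM, Cdh3 at 35.4 and 62.1 CPM and Cdh8 at 33.6 and 33.9 CPM. All of these levels were above those of every named class compared. Cdh19 was the closest, with astrocytes at 67.1 and 98.9 CPM and 23 cKO UMIs in the cluster. An astrocyte cluster (142 and 178 cells) held more Cdh19, at 128 and 188 CPM. Control choroid plexus cells, a class not compared, held Cdh3 at 30.3 CPM. A cluster that mixed S100a9 and Cd79a cells (41 and 37 cells) had Itgb2 at 349.9 and 282 CPM, Itgal at 261 and 256 CPM, Itga4 at 279 and 282 CPM and Itgb7 at 142 and 138 CPM. In T cells Itgb2 stood at 206 and 224 CPM and Itgal at 163 and 196 CPM.

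A cycling microglia-marked cluster held 28 cKO cells and 1 control cell. Its Itgam level was 244 CPM and its Itgb5 level 408 CPM in the cKO library, against 693.8 and 696 CPM in the named microglia of that library. Its Itgb2 level was 186 CPM, against 236 CPM.

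The cKO matrix also held 1448877 barcodes with 1 to 100 UMIs, 3917906 UMIs in all. Itgb1 stood at 188 CPM there, Itgb5 at 139 CPM and Cdh2 at 117 CPM. No member was higher in these barcodes than in its leading cKO class beyond counting error.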
